A study of Mus musculus with 36 samples.

Results

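Dynlt3 and Pnma5 are a pair of X-linked genes that kept a high share of transcripts from the inactive X chromosome (Xi) in differentiating mouse embryonic stem cells (mESCs). They are 2 of the 252 genes listed in either of 2 tables of allelic transcription. They were chosen by name, because earlier results of these data had shown their residual Xi expression, so their levels and their loss since induction are given here as a description, without a test. Dynlt3 is listed in both tables. Pnma5 is listed among the 249 genes of the table without the SMCHD1 K518E line and not among the 242 genes of the table with it, so it has no value in K518E.

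The libraries are chromatin-associated RNA-seq (ChrRNA-seq), which samples RNA still bound to chromatin and so weights recent transcription. The cells are interspecific Cast x 129S female mESCs in which a TetOn promoter replaces the promoter of the endogenous Xist gene on the 129S X chromosome, so that doxycycline (dox) turns on Xist from that chromosome. All lines carry this allele. 34 of the 36 libraries of the series were used, from 7 lines, namely 6 uninduced libraries, 6 after 24 h with 1 µg/ml dox, 6 at day 5 and 16 at day 7 of monolayer differentiation under dox. The parental iXist-ChrX line was not analysed here.

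The control line, Halo-SMCHD1 (clone G2), has a Halo tag on native SMCHD1, a non-canonical SMC-family ATPase of the chromatin. The other lines are an LRIF1 knockout (LRIF1 KO, clone E8), which lacks an SMCHD1 partner, an SMCHD1 knockout (SMCHD1 KO, clone SmA3), and 4 lines in which the tagged SMCHD1 has a single amino acid substitution, E147A (clone A7), Y353C (clone D4), G137E (clone H4) or K518E (clone A4). Each line is 1 clone, so an effect of the mutation and one of the clone cannot be told apart. All of these lines except SMCHD1 KO were made from Halo-SMCHD1, which also carries an eGFP-CIZ1 transgene. The matched parent of SMCHD1 KO is iXist-ChrX, so its differences from Halo-SMCHD1 cannot be told apart from differences between the parents. SMCHD1 KO has libraries at day 7 only. Smchd1 and Lrif1 are autosomal and the tables hold X-linked genes only, so neither the genotypes nor markers of pluripotency or differentiation were checked. Replicates of a differentiated group are independent repeats from that one clone, per the study's methods, so p-values measure the spread between repeats of a clone and not between clones.

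X chromosome inactivation silences most genes of 1 X chromosome in female mammals. Xist RNA coats that chromosome in cis, and repressive complexes and chromatin changes, SMCHD1 among them, then establish and hold silencing over days of differentiation. A minority of X-linked genes, called escape genes, stay transcribed from Xi. Dynlt3 encodes a Tctex-type light chain of cytoplasmic dynein, the motor that carries cargo along microtubules. Pnma5 belongs to the paraneoplastic Ma antigen family, whose genes derive from the gag gene of an ancient retroelement.

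In the coordinates of the tables (mm10), Dynlt3 (ENSMUSG00000031176) lies at chromosome X, 9654269 to 9662983, on the minus strand. Pnma5 (ENSMUSG00000050424) lies at chromosome X, 73033980 to 73037103, also on the minus strand. Both are protein-coding in GENCODE vM21. Dynlt3 has 4 annotated transcripts with 2 to 5 exons, and Pnma5 has 3 with 1 or 2 exons. No other annotated gene overlaps either of them. The fraction of each gene was taken over its whole transcribed span, introns included.

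The 250 bases before each gene start are shown because the pair differs there in CpG content, which separates the common classes of mammalian promoters. They are from RefSeq (GRCm38.p6), written 5′ to 3′ on the strand of the gene, with each CG in capitals. Dynlt3 is at chrX:9662984-9663233 and Pnma5 at chrX:73037104-73037353.
Dynlt3: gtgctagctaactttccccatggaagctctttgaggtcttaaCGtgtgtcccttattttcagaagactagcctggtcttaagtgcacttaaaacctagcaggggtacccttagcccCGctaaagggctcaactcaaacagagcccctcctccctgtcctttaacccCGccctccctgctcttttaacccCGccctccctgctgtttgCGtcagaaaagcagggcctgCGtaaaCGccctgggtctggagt
Pnma5: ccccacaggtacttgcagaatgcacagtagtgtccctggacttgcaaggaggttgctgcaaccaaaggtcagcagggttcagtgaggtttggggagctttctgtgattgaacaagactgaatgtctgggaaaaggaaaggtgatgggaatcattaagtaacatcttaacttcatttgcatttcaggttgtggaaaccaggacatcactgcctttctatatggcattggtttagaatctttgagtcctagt

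The Dynlt3 window holds 7 CG and 54.0% G or C, and the Pnma5 window holds 0 CG and 44.8% G or C. The 259 RefSeq windows of the genes of the table, which matched 201 of its 249 genes, have a median of 12 CG and 57.2% G or C. Over all 32851 windows of the genome the medians are 6 CG and 52.4%. Of the windows of the table's genes, 26.3% hold fewer CG than that of Dynlt3, and 3.47% hold none, as that of Pnma5 (7.87% of all windows). Of 3 short motifs searched on both strands, GGGCGG, the core of a GC box, occurs 2 times in the Dynlt3 window, both on the opposite strand, and 0 times in that of Pnma5. It occurs in 32.7% of all windows and 54.8% of those of the table's genes. CCAAT occurs 1 time in the Pnma5 window, on the opposite strand, and not in that of Dynlt3 (33.8% of all windows). TATAAA occurs in neither window (12.4% of all windows). Each match is a run of letters, not a binding site.

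Each value below is Xi/(Xi+Xa), the fraction of a gene's allele-specific reads that carry the 129S allele of Xi rather than the Cast allele of the active X chromosome (Xa). Equal transcription of both alleles gives 0.5 and complete silencing of Xi gives 0. The fraction does not tell a change on Xi from a change on Xa. The read counts behind the fractions are not used here, so the depth and the counting error of each value are unknown. Several values of Pnma5 are ratios of small whole numbers, such as 0.667 and 0.333 in Halo-SMCHD1 and 0.75 in G137E at day 7. Low read counts would give such ratios and a wide spread between libraries, which was not tested. The fraction of Xist itself was 0.881 to 0.995 in the 6 uninduced libraries and 0.997 or more in all libraries under dox, which shows which allele carries Xist but not how much of it is made.

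Dynlt3 was skewed to the 129S allele before Xist was induced. Its fraction in the uninduced library was 0.869 in Halo-SMCHD1, 0.885 in E147A, 0.879 in G137E, 0.904 in Y353C, 0.904 in LRIF1 KO and 0.910 in K518E. The median gene of the same 6 libraries lay between 0.514 and 0.524. In 5 of the 6 libraries 4 genes had a higher fraction than Dynlt3, and in the other library 5 genes did.

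After 24 h with dox, Dynlt3 remained near these values. It stood at 0.870 in Halo-SMCHD1, 0.889 in E147A, 0.883 in G137E, 0.872 in Y353C, 0.875 in LRIF1 KO and 0.842 in K518E. It was lower than in the uninduced library of the line in 3 of 6 lines. The median gene of these libraries lay between 0.212 and 0.277.

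At day 5, Dynlt3 was at 0.765 and 0.735 in Halo-SMCHD1, 0.812 and 0.764 in G137E, and 0.788 and 0.744 in K518E. At day 7, Halo-SMCHD1 gave 0.778, 0.794 and 0.706, and G137E gave 0.854, 0.887 and 0.753. The 2 day 7 libraries were at 0.810 and 0.744 in E147A, 0.794 and 0.712 in Y353C, 0.799 and 0.769 in LRIF1 KO, 0.787 and 0.711 in SMCHD1 KO, and 0.841 and 0.751 in K518E. The lowest day 7 value was therefore 0.706, the median 0.783 and the highest 0.887, while the library medians over all genes ran from 0.0198 to 0.101. Dynlt3 was lower than in the uninduced library of its line in 19 of the 20 differentiated libraries of lines that have one, G137E day 7 replicate 2 being the exception.

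In each of the 22 differentiated libraries exactly 3 genes had a higher fraction than Dynlt3, and they were Xist, Ube2a and C330007P06Rik throughout. Ube2a, a ubiquitin-conjugating enzyme gene, and C330007P06Rik already had a mean uninduced fraction of 0.997 and 0.999, so almost no Cast reads were assigned to them before induction either.

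Pnma5 started closer to balance. Its uninduced fraction was 0.670 in Halo-SMCHD1, 0.553 in E147A, 0.639 in G137E, 0.658 in Y353C and 0.635 in LRIF1 KO. Between 13 and 68 genes were higher in these libraries. After 24 h with dox it was at 0.417 in Halo-SMCHD1, 0.333 in E147A, 0.540 in G137E, 0.402 in Y353C and 0.379 in LRIF1 KO. It was thus lower in all 5 lines than before induction.

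At day 5, Pnma5 was at 0.429 and 0.364 in Halo-SMCHD1 and at 0.520 and 0.267 in G137E. At day 7 it was at 0.667, 0.333 and 0.571 in Halo-SMCHD1 and at 0.75, 0.625 and 0.435 in G137E. The 2 day 7 libraries gave 0.364 and 0.609 in E147A (numbered 1 and 3 in the table, and 1 and 2 in the labels), 0.400 and 0.450 in Y353C, 0.375 and 0.478 in LRIF1 KO, and 0.471 and 0.333 in SMCHD1 KO. Libraries of one line thus differed by as much as 0.333 between the lowest and the highest in Halo-SMCHD1. Over the 14 day 7 libraries the lowest value was 0.333, the median 0.460 and the highest 0.75, with 4 to 10 genes higher in the same library. Pnma5 was below the uninduced library of its line in 14 of 16 differentiated libraries. The exceptions were the E147A day 7 library numbered 3 in the table, at 0.609, and G137E day 7 replicate 1, at 0.75.

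**Figure D1:**
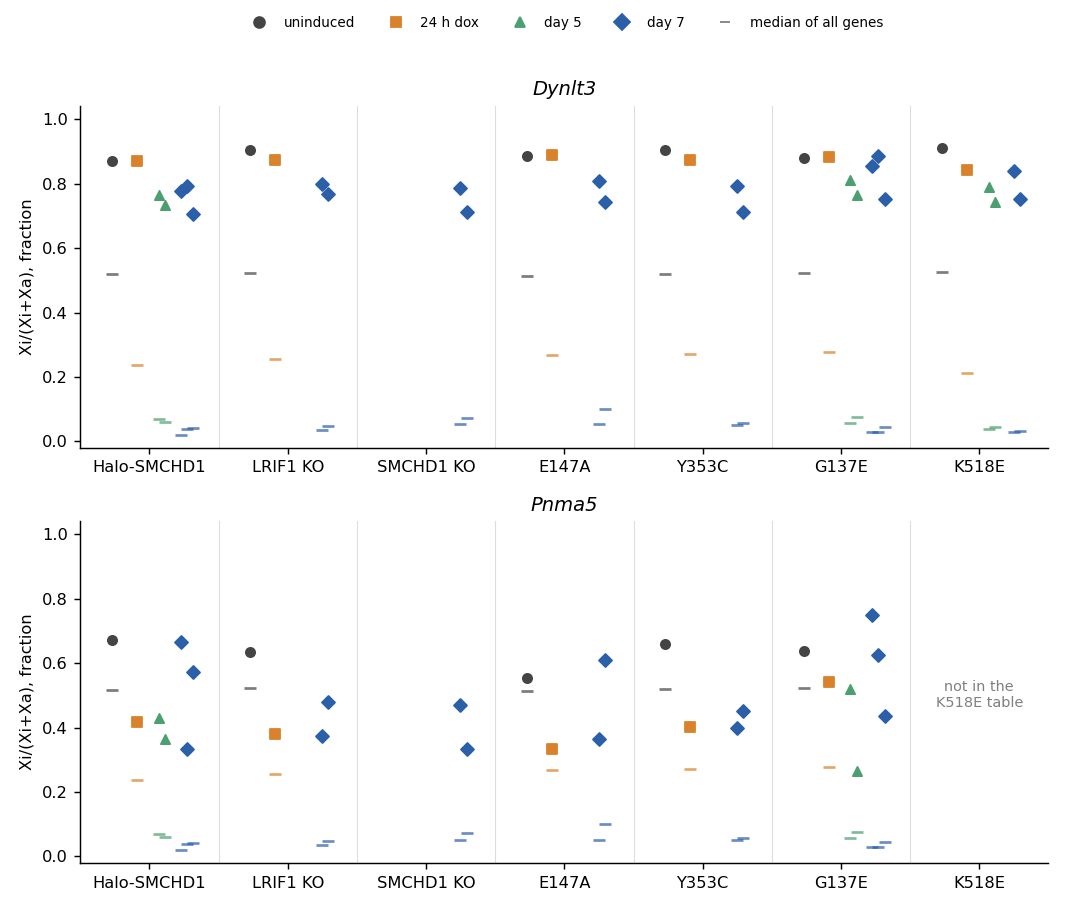
Xi/(Xi+Xa) (fraction, y axis) of Dynlt3 (top) and Pnma5 (bottom) in each library, by line (x axis) and stage (colour and symbol), with the median of all genes of the same library as a dash. Dynlt3 stayed between 0.706 and 0.910 at all stages, and Pnma5 between 0.267 and 0.75, while the day 7 medians of all genes were at 0.101 or less.

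Dynlt3 was higher than Pnma5 in all 28 libraries that hold both genes. The difference between their fractions ran from 0.199 to 0.333 in uninduced libraries, from 0.343 to 0.555 after 24 h, from 0.292 to 0.497 at day 5, and from 0.104 to 0.460 at day 7. The pair also differed in spread. The SD of the fraction between replicates, pooled over 8 groups of differentiated libraries, was 0.0497 for Dynlt3 and 0.138 for Pnma5, against a median of 0.0229 over all 249 genes. Only 2 genes had a larger SD than Pnma5, and 34 had a larger one than Dynlt3. A fraction in mid-range varies more than one near 0 at the same depth, so the log2 odds of Xi, log2(Xi/Xa) with 0.01 added to both fractions, were used as well. On that scale the pooled SD was 0.42 for Dynlt3, below the median of 0.56, and 0.82 for Pnma5, with 74 genes above it. Log2 odds in turn vary more for fractions near 0, where most genes lay, so neither scale compares the pair with silenced genes on equal terms.

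Since the starting fractions differ, each value was also set against the uninduced library of its line. As a share of that fraction, Dynlt3 kept 92.5% to 100.5% after 24 h, 81.7% to 92.3% at day 5 and 78.7% to 100.9% at day 7. The median day 7 share was 88.1% for Dynlt3, and the share of the median gene ran from 3.81% to 20.0% over the same libraries. Pnma5 kept 59.8% to 84.5% after 24 h, 41.7% to 81.4% at day 5 and 49.7% to 117.4% at day 7, with a day 7 median of 71.9%.

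A fraction near 1 changes little when the ratio of Xi to Xa falls, so the share of the odds that was kept is the stricter measure for Dynlt3. By odds, Dynlt3 kept a median of 88.2% after 24 h (55.1% to 103.6% over 6 libraries), 44.8% at day 5 (30.7% to 60.8%) and 44.0% at day 7 (28% to 107.4%). The median gene kept 33.4%, 6.97% and 4.84% at these stages. Pnma5 followed another course. After 24 h it kept a median of 35.9% of its odds (35.8% to 66.9% over 5 libraries), beside 33.7% for the median gene, and between 40 and 115 genes had lost less. At day 5 it kept 33.2% (21.3% to 61.8%) and at day 7 50.2% (25.3% to 167%), beside 7.54% and 5.15% for the median gene. Dynlt3 thus kept more of its odds than the median gene at all 3 stages, although K518E already had 55.1% of its Dynlt3 odds left after 24 h. Pnma5 stood near the median gene after 24 h and far above it at days 5 and 7. Only 3 lines have day 5 libraries, so the course between 24 h and day 7 is not shown for the others.

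**Figure D2:**
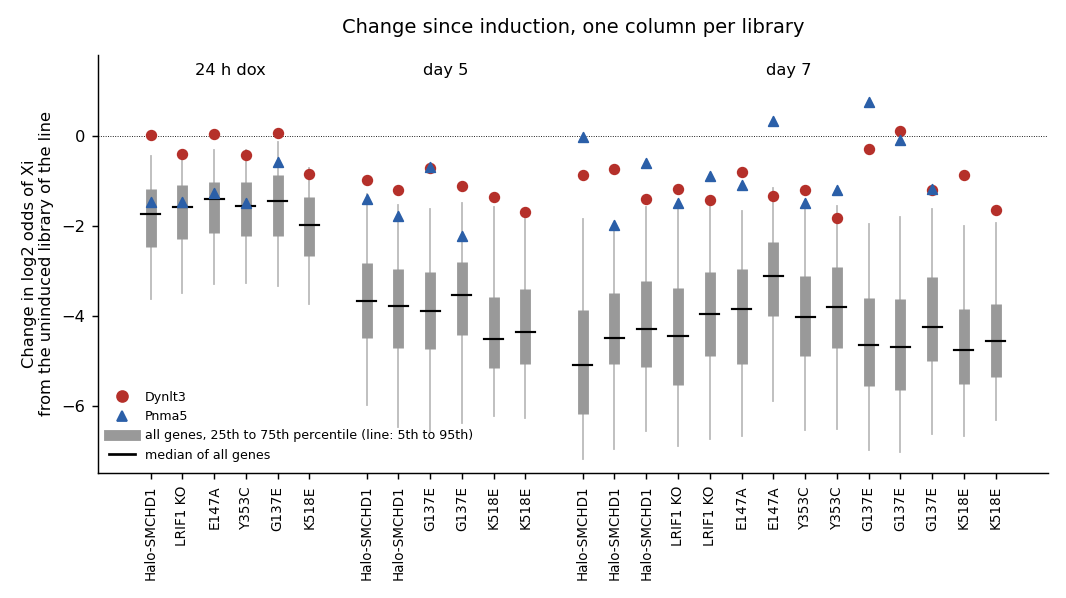
Change in the log2 odds of Xi from the uninduced library of the same line (y axis) for each induced or differentiated library (x axis, 1 column a library, grouped by stage). Points are Dynlt3 and Pnma5, and grey bars show the distribution over all genes: after 24 h Dynlt3 was above the 75th percentile in 6 of 6 lines and Pnma5 in 1 of 5, and at days 5 and 7 both were above it in every library.

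Averaged over the 5 lines of the table without K518E, the log2 odds at day 7 differed from the uninduced library by -0.80 for Pnma5, which ranked 6 of 249 from the smallest loss, and by -1.08 for Dynlt3, which ranked 7. The mean change of the median gene was -4.30. The 5 genes ahead of them were Xist (2.49), Ube2a (0.27), C330007P06Rik (0.08), Frmd7 (-0.00) and Slc25a5 (-0.03). Frmd7 had a mean uninduced fraction of 0.0082, so it had almost no 129S signal to lose. Slc25a5, which encodes a mitochondrial ADP/ATP carrier, is therefore the only one of the 5, Xist aside, that started away from both ends of the scale, at 0.370. The next genes were Pin4 (-1.22), a peptidyl-prolyl isomerase gene, and the escape genes Eif2s3x (-1.23) and Kdm6a (-1.46). In the table with K518E, Dynlt3 ranked 6 of 242 over 3 lines, with a mean change of -0.91 against -4.80 for the median gene.

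Genes with like starting fractions ended lower, Xist, Ube2a and C330007P06Rik apart. Of the other genes nearest to Dynlt3 before induction (0.889 as a mean of 5 lines, and 0.783 over 12 day 7 libraries), Mir669m-2 went from 0.877 to 0.160, Mageb16 from 0.822 to 0.0481 and Il1rapl1 from 0.965 to 0.147. For Pnma5 (0.631 before induction and 0.505 at day 7), the nearest 3 were Zc3h12b, from 0.633 to 0.0454, Gm14827, from 0.640 to 0.0729, and Zdhhc9, from 0.643 to 0.0578. Firre, a long non-coding RNA listed as an escape gene, went from 0.615 to 0.168.

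In Halo-SMCHD1 at day 7, 5 of the 249 genes had a mean fraction above 0.5. They were Ube2a (1.0), C330007P06Rik (0.999), Xist (0.999), Dynlt3 (0.759 ± 0.0468, SD, n = 3) and Pnma5 (0.524 ± 0.172, n = 3). Between 0.3 and 0.5 were Pin4 (0.416 ± 0.0617), Slc25a5 (0.413 ± 0.152), Tsix (0.315 ± 0.290), the antisense gene of Xist, and Nono (0.309 ± 0.0669), an RNA-binding paraspeckle protein gene. The spread of Pnma5 reaches those values, since its lowest library, at 0.333, is below the means of Pin4 and Slc25a5.

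**Figure D3:**
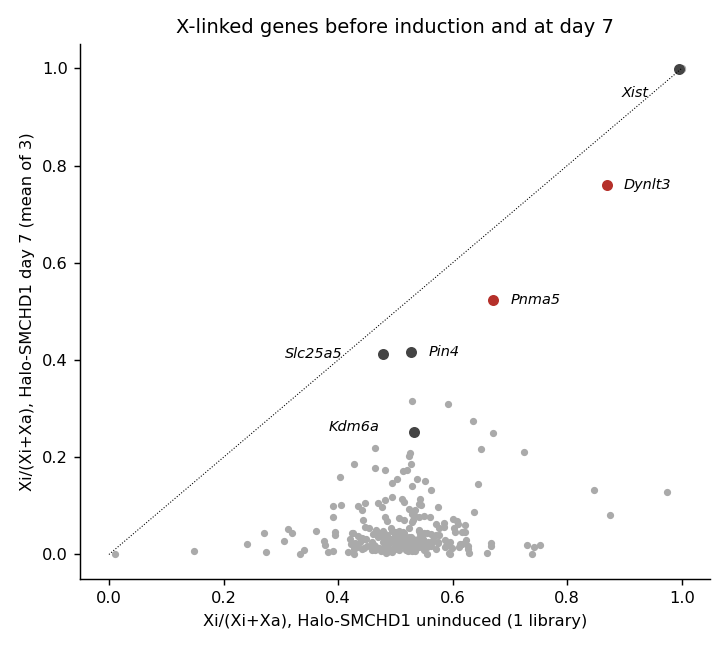
Xi/(Xi+Xa) of each of the 249 genes in Halo-SMCHD1, uninduced (x axis, 1 library) and at day 7 (y axis, mean of 3 libraries), with equality as a dotted line. Dynlt3 (0.869 and 0.759) and Pnma5 (0.670 and 0.524) lie nearer to the line than other genes that started at similar fractions, and Ube2a and C330007P06Rik lie under the point of Xist.

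The genes around the pair did not share their fractions. The 5 measured genes on either side of Dynlt3 have their 5′ ends at least 223 kb from its own and had Halo-SMCHD1 day 7 means between 0.0041 and 0.156, with a median of 0.0440. The nearest was Sytl5, at 0.0041, and the highest was Xk, at -390.2 kb on the other side, with 0.156. Around Pnma5, the 10 neighbours had means from 0 to 0.0371, with a median of 0.0163. Zfp185, whose 5′ end is at -49.8 kb and whose body ends 2.44 kb from that of Pnma5, was at 0.0063, and the highest, Bcap31, an endoplasmic reticulum chaperone gene, at 0.0371. The lowest Halo-SMCHD1 day 7 library of Dynlt3 (0.706) and of Pnma5 (0.333) was above the mean of every one of these neighbours. The pair was chosen for its high fractions, and the median of all genes was 0.0325, so this contrast is only a description. Genes between them that the tables do not list were not measured here.

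**Figure D4:**
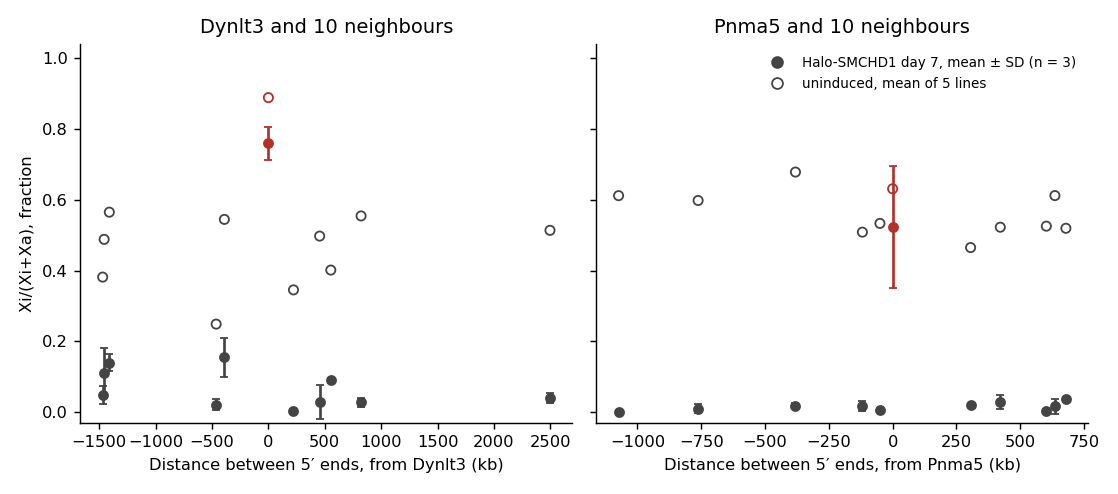
Xi/(Xi+Xa) (fraction, y axis) of Dynlt3 (left) and Pnma5 (right), in red, and of the 5 measured genes on each side, in black, by the distance between 5′ ends in kb (x axis). Filled points are Halo-SMCHD1 day 7 means with SD (n = 3) and open points uninduced means of 5 lines: the neighbours' day 7 means lay at 0.156 or less around Dynlt3 and 0.0371 or less around Pnma5.

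Of 18 mouse escape genes listed for comparison, 8 were in the table, and neither Dynlt3 nor Pnma5 is in that list. Their median Halo-SMCHD1 day 7 fraction was 0.182, beside 0.0325 for all genes, and the median of their mean changes in log2 odds was -2.25, beside -4.30. Xist apart (0.999), the measured escape genes were Kdm6a, a histone demethylase gene, at 0.253, the translation initiation factor gene Eif2s3x at 0.218, Utp14a at 0.218, the RNA helicase gene Ddx3x at 0.147, Firre at 0.144, 1810030O07Rik at 0.0867 and Shroom4 at 0.0305. All 7 were below the lowest Halo-SMCHD1 library of either Dynlt3 or Pnma5.

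Of 25 gag-derived genes listed, Pnma5 was the only one in the table, so it has no gene of like origin to be set beside. Of 13 X-linked genes of microtubules, motors, centrosomes and cilia, 5 were in the table, and beside Dynlt3 these were Rpgr (0.0912), a cilium gene, Haus7 (0.0280), a subunit of the augmin complex, the kinesin gene Kif4 (0.0241) and Rp2h (0.0210). Their median of 0.0261 was below the 0.0325 of all genes.

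The genes most like each member were found by the root mean square difference in Xi/(Xi+Xa) over 28 libraries. For Dynlt3 they were Xist (0.191), C330007P06Rik (0.196) and Ube2a (0.196), with a median of 0.659 over all genes. For Pnma5 they were Pin4 (0.162), Nono (0.164) and Zfx (0.177), an X-linked zinc finger gene, with a median of 0.367. Across the 18 differentiated libraries of that table, after the library median was subtracted from the log2 odds, Dynlt3 correlated best with Zfx (Spearman's rho 0.917), Eif2s3x (0.901) and Frmd7 (0.886), where the median gene had 0.134. Pnma5 correlated best with C330007P06Rik (0.787), Xist (0.730) and Ube2a (0.719), where the median gene had 0.163. Several of these genes hardly vary between libraries, and all points share the subtracted median, so these values are descriptive.

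The comparisons of mutant lines with Halo-SMCHD1 at day 7 address whether loss or alteration of SMCHD1 or LRIF1 changes Xi silencing. Over all genes, the median difference in log2 odds from Halo-SMCHD1 was 0.26 in LRIF1 KO, 0.87 in E147A, 0.52 in Y353C and 0.59 in SMCHD1 KO. The limma test with Benjamini-Hochberg adjustment (adjusted p under 0.05) called 0 of 249 genes in LRIF1 KO (0% of those tested, with 29 at an unadjusted p under 0.05), 40 in E147A (16.1%), 8 in Y353C (3.21%) and 35 in SMCHD1 KO (14.1%), all of them higher. Leaving out 1 library moved these counts to between 5 and 79 in E147A, 1 and 14 in Y353C and 0 and 32 in SMCHD1 KO, so the shares are uncertain as a background. Neither Dynlt3 nor Pnma5 was called in any of the 4 lines.

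In all 4 lines the fitted difference of Dynlt3 was smaller than that of the median gene, and the gap was not called when libraries were centred on their medians. The difference of Dynlt3 from Halo-SMCHD1 was 0.13 (SE 0.38, 95% interval -0.71 to 0.97, limma adjusted p = 0.790) in E147A, where the median of all genes, 0.87, is inside the interval. It was -0.05 (-0.89 to 0.79, limma adjusted p = 0.961) in Y353C, -0.08 (-0.92 to 0.76, limma adjusted p = 0.909) in SMCHD1 KO and 0.18 (-0.66 to 1.02, limma adjusted p = 0.926) in LRIF1 KO. Leaving out 1 library turned the sign in all 4 lines, with values from -0.13 to 0.40 in E147A, -0.36 to 0.26 in Y353C, -0.37 to 0.21 in SMCHD1 KO and -0.016 to 0.31 in LRIF1 KO. With each library centred on its median log2 odds, the differences of Dynlt3 were negative in all 4 lines, at -0.92 in E147A, -0.69 in Y353C, -0.89 in SMCHD1 KO and -0.15 in LRIF1 KO, again without a call. The sign of Dynlt3 in E147A and in LRIF1 KO turned with this scaling, which takes the same amount from every gene of a library and so restates the gap to the median gene.

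The fitted differences of Pnma5 from Halo-SMCHD1 were negative in each of these lines, and none passed the test. They were -0.22 (SE 0.70, 95% interval -1.75 to 1.32, limma adjusted p = 0.810) in E147A, -0.56 (-2.10 to 0.97, limma adjusted p = 0.634) in Y353C, -0.71 (-2.24 to 0.83, limma adjusted p = 0.541) in SMCHD1 KO and -0.56 (-2.09 to 0.98, limma adjusted p = 0.806) in LRIF1 KO. Leaving out 1 library moved the values to between -1.12 and -0.14 in LRIF1 KO and in Y353C and between -1.27 and -0.29 in SMCHD1 KO, with Halo-SMCHD1 replicate 2 or replicate 1 left out, and to between -0.93 and 0.49 in E147A. With centred libraries they were -1.27 in E147A, -1.21 in Y353C, -1.52 in SMCHD1 KO and -0.89 in LRIF1 KO, again without a call. The intervals span about 3 log2 units, so both a loss and a gain of Xi expression by more than the median gene lie inside each of them. The 4 comparisons share the 3 Halo-SMCHD1 libraries. High values in these libraries may have entered the choice of the pair, which would bias every comparison with them. The shared sign of Pnma5 is therefore not read as a pattern.

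In the same fits, some members of the other lists were called. Kif4 was called higher in E147A, Y353C and SMCHD1 KO, Haus7 in E147A and SMCHD1 KO, and Rpgr in SMCHD1 KO, which makes 2, 1 and 3 of the 4 microtubule genes beside Dynlt3, where 16.1%, 3.21% and 14.1% of all genes were called. Of the 8 escape genes, 0 were called in any of the 4 lines, a count near these shares. Over all genes 1, 0 and 0 calls were left in E147A, Y353C and SMCHD1 KO with centred libraries, and again 1, 0 and 0 in fits of only the libraries compared.

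The comparisons of G137E and K518E address whether these substitutions alter the extent or the pace of silencing. At day 7, 0 of 242 genes were called in either line (0% each, with 20 at an unadjusted p under 0.05 in G137E and 12 in K518E). Dynlt3 differed from Halo-SMCHD1 by 0.67 in G137E (SE 0.35, 95% interval -0.12 to 1.46, limma adjusted p = 0.675) and by 0.31 in K518E (-0.57 to 1.19, limma adjusted p = 0.924). The G137E value was 0.39 without G137E replicate 2 and 1.03 without replicate 3, and the K518E value was -0.075 without K518E replicate 1 and 0.70 without replicate 2. The G137E libraries (0.753 to 0.887) overlap those of Halo-SMCHD1 (0.706 to 0.794). Pnma5 in G137E, taken from the other table, differed by 0.50 (SE 0.63, 95% interval -0.88 to 1.87, limma adjusted p = 0.986), with 0 of 249 genes called there (0%, with 13 at an unadjusted p under 0.05). It was -0.060 without Halo-SMCHD1 replicate 2 and 1.00 without G137E replicate 3.

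At day 5, 0 of 242 genes were called in G137E (0%, with 7 at an unadjusted p under 0.05) and 1 in K518E (0.413%). The median difference from Halo-SMCHD1 over all genes was -0.46 log2 units in K518E, where Dynlt3 differed by 0.13 (95% interval -0.84 to 1.09, limma adjusted p = 0.882). With centred libraries this K518E difference of Dynlt3 was 0.74 (limma adjusted p = 0.857). In G137E, Dynlt3 differed by 0.30 (-0.67 to 1.27, limma adjusted p = 1.0, and 0.10 to 0.50 with either G137E library left out) and Pnma5 by -0.06 (-1.74 to 1.63, limma adjusted p = 1.0, with 1 of 249 genes called, 0.402%). Between K518E and G137E at day 5, Dynlt3 differed by -0.18 (-1.14 to 0.79, limma adjusted p = 0.823, with 1 of 242 genes called, 0.413%). For Dynlt3, the K518E effect at day 5 differed from the one at day 7 by -0.18 (-1.49 to 1.12, limma adjusted p = 0.884, with 1 of 242 genes called, 0.413%). Leaving out 1 library turned the sign of Dynlt3 in K518E (-0.049 to 0.30), in K518E against G137E (-0.38 to 0.025) and in the difference between days (-0.57 to 0.20), and that of Pnma5 in G137E (-0.83 to 0.71).

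Between day 5 and day 7 the median difference over all genes was -0.68 log2 units in Halo-SMCHD1 and -0.64 in G137E, and 23 genes (9.5%) and 18 genes (7.44%) of 242 were called, of which 22 and 18 were lower at day 7. These shares are uncertain as a background, since leaving out 1 library moved the counts to between 0 and 32 for Halo-SMCHD1 and to between 0 and 47 for G137E. Centred libraries gave 2 and 0 calls, as did fits of only the libraries compared. Dynlt3 was not called, with a day 7 minus day 5 difference of 0.08 in Halo-SMCHD1 (95% interval -0.80 to 0.97, limma adjusted p = 0.899) and 0.45 in G137E (-0.43 to 1.33, limma adjusted p = 0.426). In G137E the Dynlt3 difference was 0.17 without G137E day 7 replicate 2 and 0.82 without replicate 3, and in Halo-SMCHD1 it ran from -0.047 to 0.28 with 1 library left out. Set against the median gene with centred libraries, Dynlt3 differed by 1.27 in G137E (limma adjusted p = 0.289) and by 0.97 in Halo-SMCHD1 (limma adjusted p = 0.389), neither of them called. In K518E the difference was 0.27 (-0.70 to 1.24, limma adjusted p = 0.931, with 1 of 242 genes called, 0.413%). It ran from -0.12 to 0.65 with 1 library left out, and was 0.59 with centred libraries (limma adjusted p = 0.967). The differences of Pnma5 were 0.73 in Halo-SMCHD1 (-0.80 to 2.27, limma adjusted p = 0.491) and 1.29 in G137E (-0.25 to 2.83, limma adjusted p = 0.267), in the table where 8 of 249 genes (3.21%) and 0 of 249 (0%, with 63 at an unadjusted p under 0.05) were called. In Halo-SMCHD1 the value of Pnma5 was 0.31 without day 7 replicate 1, 1.29 without day 7 replicate 2 and 1.63 with centred libraries. In G137E it was 0.52 without day 5 replicate 2, 2.06 without day 5 replicate 1 and 2.12 with centred libraries (limma adjusted p = 0.294). Among the list genes, Kif4 and the escape gene Shroom4 were called lower at day 7 in Halo-SMCHD1.

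**Figure D5:**
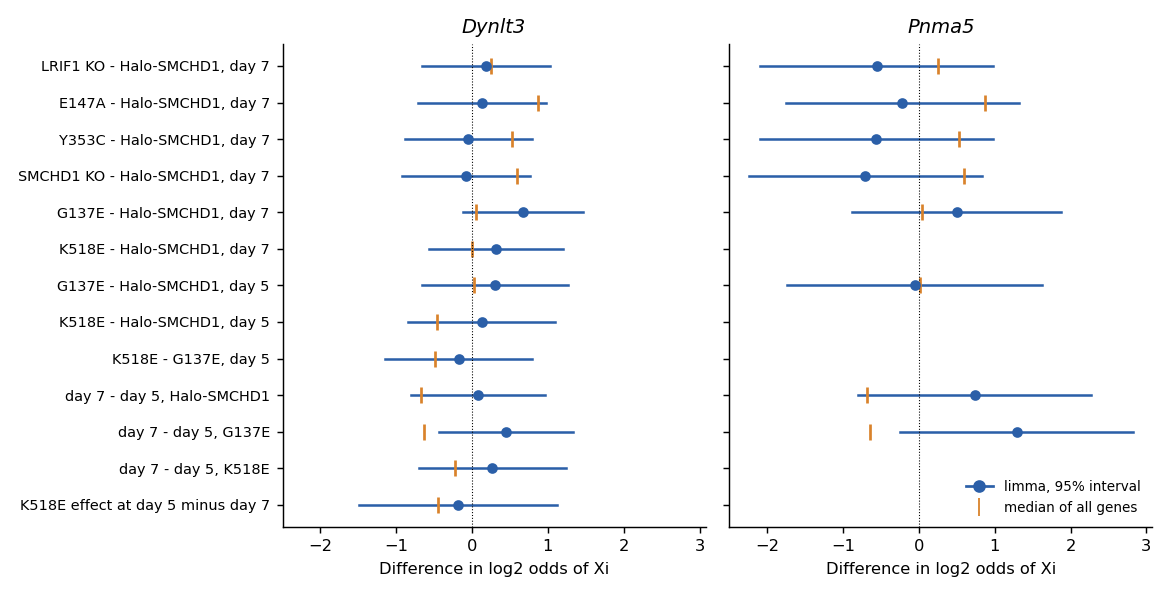
Differences in the log2 odds of Xi (x axis) for Dynlt3 (left) and Pnma5 (right) in each comparison (y axis), with 95% intervals from limma, and the median of all genes in the same comparison as an orange dash. All 21 intervals include 0. The intervals are for the difference of each gene and not for its distance from the median of all genes.

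Over all 21 tests, 13 of Dynlt3 and 8 of Pnma5, 0 passed the adjusted threshold and 0 had an unadjusted p under 0.05. The libraries of both groups overlapped wherever one line or day was compared with another. For Dynlt3 at day 5 the overlap was narrow, with the lowest G137E library at 0.7635 and the highest Halo-SMCHD1 library at 0.7647. Overlap was not counted over all genes, and with groups of 2 or 3 libraries it says little. By mean day 7 fraction, Dynlt3 was highest in G137E (0.831 ± 0.0697, SD, n = 3), followed by K518E (0.796 ± 0.0632, n = 2), LRIF1 KO (0.784 ± 0.0216, n = 2), E147A (0.777 ± 0.0466, n = 2), Halo-SMCHD1 (0.759 ± 0.0468, n = 3), Y353C (0.753 ± 0.0583, n = 2) and SMCHD1 KO (0.749 ± 0.0544, n = 2). For Pnma5 the order was G137E (0.603 ± 0.159, n = 3), Halo-SMCHD1 (0.524 ± 0.172, n = 3), E147A (0.486 ± 0.173, n = 2), LRIF1 KO (0.427 ± 0.0730, n = 2), Y353C (0.425 ± 0.0354, n = 2) and SMCHD1 KO (0.402 ± 0.0971, n = 2). Neighbours in either order overlap in their libraries throughout.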

How the data were processed

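The authors made ChrRNA-seq libraries, discarded rRNA reads (Bowtie2) and mapped the remainder with STAR to mm10 with SNP positions masked. Unique alignments were assigned to an allele with SNPsplit and counted per gene, introns included, with featureCounts. From these counts the authors deposited, for each gene with enough reads over SNPs, the fraction Xi/(Xi+Xa) in every library, in 2 tables of 249 and 242 genes. No scaling between libraries and no pooling of replicates was applied. The 239 shared genes have identical values in the 14 shared libraries. 2 columns of per-sample values could not be matched to a label and were not used, so the comparisons planned with iXist-ChrX were not run, and SMCHD1 KO was compared with Halo-SMCHD1, which is not its parent, in their place.

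Dynlt3 and Pnma5, the gene lists and the tests were chosen with earlier results of these data known. The genes named are this pair, Xist, the 3 most like each by either measure of likeness, 5 neighbours on each side, the 10 highest in Halo-SMCHD1 at day 7 and the lists. Genes near the pair in uninduced fraction or in rank of loss were named after their values were seen. Each gene was compared between groups of libraries with limma 3.58.1 (lmFit and eBayes, R 4.3.3) on log2((r + 0.01)/(1 - r + 0.01)). Every day 5 and day 7 library of a table was fitted together, with Benjamini-Hochberg adjustment over all genes of that table. G137E and K518E used the table with K518E, except for Pnma5. Alternatives were other pseudocounts (0.001 and 0.05), untransformed fractions, centred libraries, a filter on uninduced fractions (0.25 to 0.75), only the libraries compared, a replicate block, robust estimation, the other table and leaving out each library. Python 3.11.15 was used for the rest.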

Additional observations from a re-analysis of the deposited data

How the results depend on the processing

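Over 161 alternatives for Dynlt3 and 104 for Pnma5, 0 gave a call. The lowest adjusted p was 0.0923 for Dynlt3 and 0.122 for Pnma5, and 22 and 5 values changed sign. The filter on uninduced fractions removes Dynlt3, and comparisons with iXist-ChrX were not run. With 2 or 3 libraries of 1 clone and fractions of unknown depth, differences smaller than the intervals given could not be resolved, for Pnma5 above all.

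Centred libraries turned the sign of Dynlt3 in LRIF1 KO (-0.15), in E147A (-0.92), in K518E minus G137E at day 5 (0.46) and in the K518E difference at day 5 minus day 7 (0.38). They left 1 call among all genes in E147A, 0 in Y353C and SMCHD1 KO, and 2 in Halo-SMCHD1, 0 in G137E and 0 in K518E between days 5 and 7, and 0 for the K518E difference between days. Fits of only the libraries compared called 1 gene in LRIF1 KO, 1 in E147A, 0 in Y353C, 0 in SMCHD1 KO, 2 in K518E at day 5, 0 in K518E minus G137E, 2, 0 and 0 between days in Halo-SMCHD1, G137E and K518E, and 0 for the difference between days. A pseudocount of 0.001 gave 23 calls in E147A, 16 in SMCHD1 KO and 0 between days in Halo-SMCHD1 and G137E, and one of 0.05 gave 42 in each of the latter and 0 for the K518E difference between days. With 0.05 the mean loss of the median gene was -3.41, and Dynlt3 stayed at rank 7. Untransformed fractions gave 62 calls in Halo-SMCHD1, 50 in G137E and 0 in K518E between days, 0 for K518E minus G137E and 0 for the difference between days. The other table gave 8 and 0 calls between days in Halo-SMCHD1 and G137E and 1 in G137E at day 5. Robust estimation gave 0 for the difference between days. The cause of these shifts was not tested.

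Same-numbered replicates did not deviate together in every pair of groups. The correlation of their differences ran from -0.108 to 0.255 over 21 pairs of groups in the table without K518E (7 above 0.1) and from -0.187 to 0.177 over 15 pairs in the other (4 above 0.1), so the numbers were not taken as pairs. Dynlt3 was higher in replicate 1 than in replicate 2 in 7 of 9 groups, and Pnma5 in 5 of 7. G137E was above the same-numbered Halo-SMCHD1 library in 5 of 5 pairs for Dynlt3 and 3 of 5 for Pnma5. The same counts are not given for all genes, so these cannot be called unusual. A replicate block, from which the E147A library numbered 3 in the table and not in the labels was left out, gave 1 call in LRIF1 KO, 8 in E147A, 69 in SMCHD1 KO, 76 and 56 between days in Halo-SMCHD1 and G137E, and 0 for the K518E difference between days. It turned Dynlt3 to -0.10 in LRIF1 KO and to 0.10 for the difference between days, moved Pnma5 in E147A to -1.44, and called neither gene. With this block Dynlt3 was also at 0.0070 in E147A, -0.33 in Y353C, -0.36 in SMCHD1 KO and 0.029 in K518E at day 7. Between days Dynlt3 was at 0.37 in Halo-SMCHD1 and 0.73 in G137E with the block. The G137E value had the lowest adjusted p of Dynlt3 (limma adjusted p = 0.0923).

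Leaving out 1 library at a time moved Dynlt3 from -0.016 (without Halo-SMCHD1 replicate 3) to 0.31 in LRIF1 KO, -0.13 (without E147A replicate 1) to 0.40 in E147A, -0.36 to 0.26 (without Y353C replicate 2) in Y353C, -0.37 to 0.21 (without SMCHD1 KO replicate 2) in SMCHD1 KO, and -0.075 (without K518E replicate 1) to 0.70 in K518E at day 7. It moved Dynlt3 from -0.049 to 0.30 in K518E at day 5, -0.38 to 0.025 in K518E minus G137E, -0.047 to 0.28 and -0.12 to 0.65 between days in Halo-SMCHD1 and K518E, and -0.57 to 0.20 for the difference between days. Dynlt3 in G137E ran from 0.39 to 1.03 at day 7, 0.10 to 0.50 at day 5 and 0.17 to 0.82 between days. Between days Pnma5 ran from 0.52 to 2.06 in G137E and 0.31 to 1.29 in Halo-SMCHD1. Pnma5 ran from -1.12 to -0.14 in LRIF1 KO and in Y353C, -1.27 to -0.29 in SMCHD1 KO, -0.93 to 0.49 (without E147A replicate 1) in E147A, -0.060 (without Halo-SMCHD1 replicate 2) to 1.00 in G137E at day 7 and -0.83 to 0.71 in G137E at day 5. Calls among all genes ran from 0 to 1 in LRIF1 KO, 5 (without the library numbered 3) to 79 (without replicate 1) in E147A, 1 to 14 in Y353C, 0 to 32 in SMCHD1 KO, 1 to 2 in K518E at day 5 and in K518E minus G137E, 0 to 32 and 0 to 47 between days in Halo-SMCHD1 and G137E, and 0 to 2 for the difference between days. An arm left with 1 library was assumed to vary like the other groups.

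With 0.5 in place of the uninduced fraction, the day 7 share of Dynlt3 became 151.9% in Halo-SMCHD1, 155.3% in E147A, 166.3% in G137E, 150.6% in Y353C, 156.8% in LRIF1 KO and 159.2% in K518E. That of Pnma5 became 104.8% in Halo-SMCHD1, 120.7% in G137E, 85.0% in Y353C and 85.3% in LRIF1 KO. Only shares that moved by more than their SD between replicates are given, so Pnma5 in E147A is not among them.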
